A study of Homo sapiens with 9 samples.

Results

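The interferon-stimulated effector genes are 42 genes whose proteins carry out the cell's antiviral program. They were taken by symbol from a given list of names, and each matched 1 of the 58395 gene rows counted in every library. They were grouped here into the IFIT, OAS, IFITM, GBP, PARP, ISG15 conjugation, MX and IFI families and into remaining antiviral and interferon-induced genes. The cells were MDA-MB-231, a mesenchymal line from a human breast tumour that lacks hormone receptors and HER2 amplification, and their total RNA was sequenced. Cells were collected 96 h after reverse transfection of an siRNA. The SKP2-2 and SKP2-1 groups each received a different single siRNA against SKP2, and the NC group received a nontargeting control siRNA, with 3 libraries in each group. All groups were grown in the same serum-containing medium, none is labelled as treated with interferon, and no virus is named. The series title asks how the transcriptome responds to SKP2 knockdown, SKP2 being the F-box protein that selects substrates for the SCF ubiquitin ligase. Each knockdown rests on 1 siRNA sequence in 1 cell line, and whether the replicates were grown or transfected separately is not stated. The p-values therefore measure the spread between these libraries, which may be technical.

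Interferons bind receptors on the cell surface, and the attached kinases JAK1 and TYK2 phosphorylate STAT proteins such as STAT2. Together with IRF9, these enter the nucleus and bind the interferon-stimulated response element, a short promoter motif with repeated GAAA blocks. Type II interferon acts through a different motif, and the GBP genes are classic targets of that branch. Effector proteins recognise foreign RNA, degrade it, block virus entry or budding, or tag proteins with ISG15, and many of them are also made at a low constant level without added interferon.

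Libraries held 35.5 to 49.9 M gene counts. SKP2, the target, had 6.09, 5.69 and 6.10 CPM in SKP2-2 and 3.51, 3.31 and 3.91 CPM in SKP2-1, against 57.5, 63.8 and 64.8 CPM in NC, where CPM is the count relative to the scaled library size. It was lower in every siRNA library, with log2 fold changes of -3.38 for SKP2-2 and -4.11 for SKP2-1. The design text names ZIP7 (SLC39A7) in place of SKP2, and that gene was not called with either siRNA, at a log2 fold change of 0.09 for SKP2-2 and 0.00 for SKP2-1 (edgeR quasi-likelihood test, Benjamini-Hochberg adjusted p = 0.0868 and adjusted p = 0.936). The MDA-MB-231 markers VIM, CD44, EGFR, AXL and CAV1 each averaged at least 488 CPM in every group, but they were not constant: AXL fell by 1.15 with SKP2-1, and CD44 and EGFR rose with both siRNAs. CAV1 was called lower by 0.14 with SKP2-1 and higher by 0.39 with SKP2-2, and VIM was not called with either. Of 5 genes listed as low in this line, the hormone receptor genes ESR1 and PGR were too low to test, and ERBB2 averaged 88.1 CPM in SKP2-2, 94.4 CPM in SKP2-1 and 84.1 CPM in NC. EPCAM averaged 6.92 CPM in SKP2-2, 10.2 CPM in SKP2-1 and 7.93 CPM in NC. CDH1 averaged 3.89 CPM in SKP2-2, 8.15 CPM in SKP2-1 and 12.4 CPM in NC and was called lower with both siRNAs. EPCAM and ERBB2 went the other way with SKP2-1, called higher by 0.36 and 0.17 log2 units, and neither was called with SKP2-2. At these levels ERBB2 lay well above the rest of its list. The third principal component, with 11.6% of the variance, spread the libraries within NC and within SKP2-2. NC ran from -30.3 (replicate 1) to 21.2 (replicate 3), and SKP2-2 from 21.7 (replicate 1) to -14.6 (replicate 3). Results of members that rest on the libraries at these ends are also given without them.

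The promoters shown here belong to members with the largest difference between the siRNAs, namely IFIT1, IFIT3, ISG20 and MX1, and to OAS3, added after its values were seen because it fell with both siRNAs. OASL and MX2 had equally large differences and are named only. Each window is 300 bases long, from 250 bases before the annotated start, in RefSeq's copy of GRCh38.p14, written 5′ to 3′ on the gene's strand. Capitals mark the core of the interferon-stimulated response element, GAAA and GAAA with any 2 bases (NN) between them, or the same core read on the other strand, TTTC and TTTC with NN between them. Both strands were searched and overlapping matches were counted. All windows shown lie on the plus strand, and for MX1 the windows with a match are shown. A further MX1 window, chr21:41425989-41426288, held no match and is not shown.
IFIT1, chr10:89392373-89392672: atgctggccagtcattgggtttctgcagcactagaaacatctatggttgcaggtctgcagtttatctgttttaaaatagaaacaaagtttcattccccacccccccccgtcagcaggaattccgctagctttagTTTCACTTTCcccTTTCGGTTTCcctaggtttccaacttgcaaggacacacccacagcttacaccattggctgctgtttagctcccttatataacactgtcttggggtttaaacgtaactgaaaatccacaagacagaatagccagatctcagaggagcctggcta
IFIT3, upstream start, chr10:89327747-89328046: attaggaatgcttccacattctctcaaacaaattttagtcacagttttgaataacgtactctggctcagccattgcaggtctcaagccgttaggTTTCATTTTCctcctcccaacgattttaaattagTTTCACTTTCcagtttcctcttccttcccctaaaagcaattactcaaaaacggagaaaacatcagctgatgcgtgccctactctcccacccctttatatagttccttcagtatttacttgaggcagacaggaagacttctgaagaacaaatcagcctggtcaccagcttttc
IFIT3, downstream start, chr10:89332279-89332578: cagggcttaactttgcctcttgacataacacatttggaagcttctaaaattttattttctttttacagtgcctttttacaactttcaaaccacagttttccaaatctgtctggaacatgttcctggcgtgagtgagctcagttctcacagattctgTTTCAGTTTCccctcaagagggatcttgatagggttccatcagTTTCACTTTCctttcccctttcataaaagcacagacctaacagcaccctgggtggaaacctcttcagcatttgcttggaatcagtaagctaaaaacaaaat
ISG20, chr15:88638766-88639065: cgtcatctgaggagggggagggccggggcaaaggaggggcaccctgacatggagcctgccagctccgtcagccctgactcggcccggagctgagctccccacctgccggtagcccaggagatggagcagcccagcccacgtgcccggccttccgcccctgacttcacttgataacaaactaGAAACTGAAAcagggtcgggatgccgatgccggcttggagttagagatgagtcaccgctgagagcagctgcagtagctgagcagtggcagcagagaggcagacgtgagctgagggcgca
MX1, upstream start, chr21:41420308-41420607: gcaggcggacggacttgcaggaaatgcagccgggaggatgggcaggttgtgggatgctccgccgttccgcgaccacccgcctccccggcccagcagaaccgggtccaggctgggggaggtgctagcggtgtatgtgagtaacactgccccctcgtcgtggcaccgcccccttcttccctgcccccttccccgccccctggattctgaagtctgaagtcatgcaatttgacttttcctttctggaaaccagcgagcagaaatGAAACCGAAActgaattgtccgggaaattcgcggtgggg
MX1, downstream start, chr21:41431800-41432099: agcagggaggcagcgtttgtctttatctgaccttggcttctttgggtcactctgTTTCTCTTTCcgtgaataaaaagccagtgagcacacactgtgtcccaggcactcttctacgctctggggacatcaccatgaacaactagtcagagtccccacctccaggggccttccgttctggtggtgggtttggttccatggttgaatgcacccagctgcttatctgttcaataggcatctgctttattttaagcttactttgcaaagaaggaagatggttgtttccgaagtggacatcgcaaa
OAS3, chr12:112938224-112938523: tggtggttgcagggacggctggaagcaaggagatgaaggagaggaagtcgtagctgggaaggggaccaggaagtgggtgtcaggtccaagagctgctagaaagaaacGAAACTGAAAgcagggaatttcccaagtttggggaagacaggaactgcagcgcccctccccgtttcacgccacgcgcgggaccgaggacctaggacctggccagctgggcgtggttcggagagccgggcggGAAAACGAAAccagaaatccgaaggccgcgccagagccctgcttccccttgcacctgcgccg

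IFIT1 carried its matches at -116 and -103 from the start, both on the other strand. OAS3 carried matches at -143 and -12, both on the gene's strand. ISG20 held a single match at -69. Of 42 members, 34 had at least 1 window in the RefSeq table and 25 of these (73.5%) held the core, against 1195 of 27305 gene symbols with a window (4.38%). Of the 47 member windows 30 (63.8%) held it, against 1255 of all 35116 windows (3.57%). They contained 47 matches, 45 of them upstream of the start, with a median position of -93. Windows can overlap, and the matches lie at 42 distinct genomic sites, of which 5 fall in more than 1 window (both sites of IFI27, those of IFI44 and PLSCR1, and the site shared by DTX3L and PARP9). Among members with a window, the core was found in 17 of 23 that were called higher with SKP2-1, in 3 of 3 called lower and in 5 of 7 not called. A match is a run of letters in the reference genome and not a measured binding site. A missing match means only that the window lacks the blocks at this spacing. Some members counted as without the core, such as OAS1, TRIM25 and XAF1, hold the blocks with 1 base between them, on either strand. They cannot be taken to lack a response element.

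**Figure D1:**
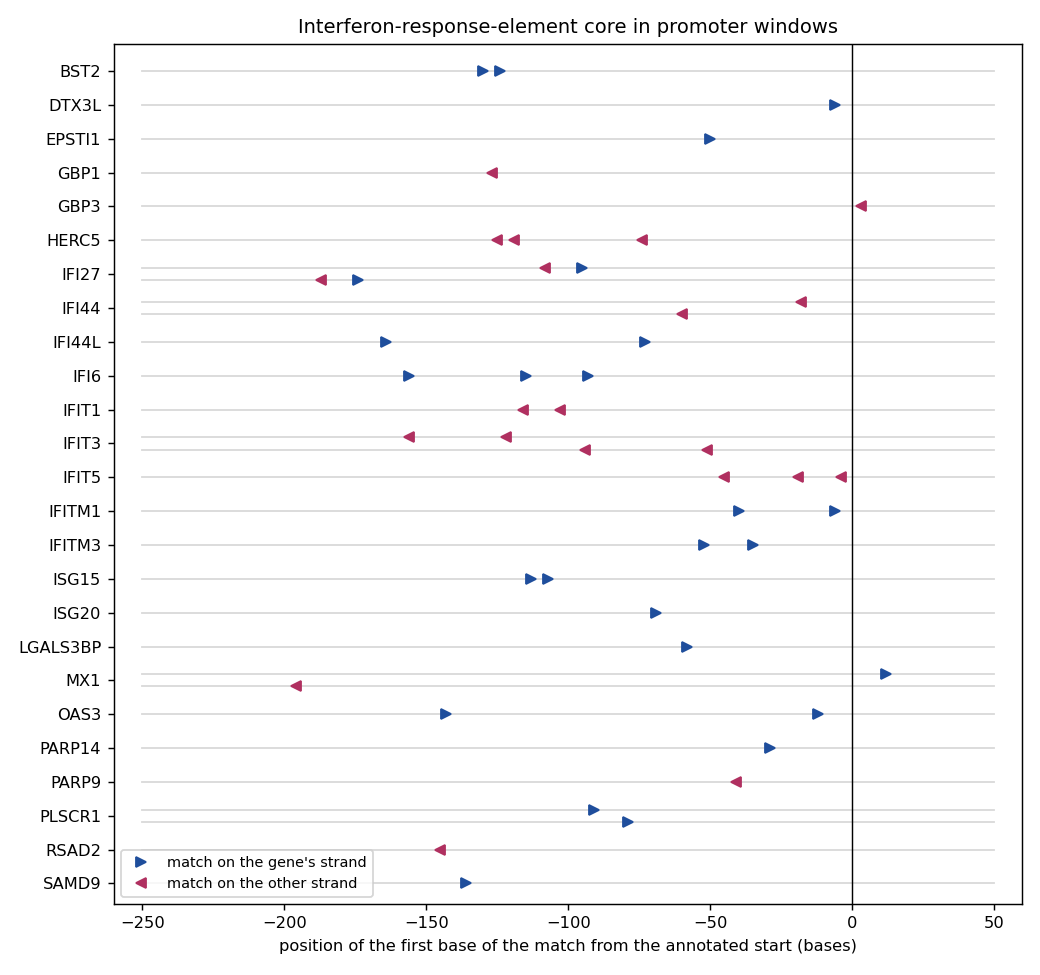
Position of every match to the response-element core in the promoter windows of the 25 members with at least 1 match; the x axis is the first base of the match in bases from the annotated start (vertical line), grey lines are windows, and arrows give the strand. Of 47 matches, at 42 distinct genomic sites, 45 lie left of the start, and the median position is -93.

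Summed over the 42 members, the level was 2442, 2464 and 2494 CPM in the SKP2-2 libraries, 3526, 3659 and 3673 CPM in the SKP2-1 libraries and 2550, 2520 and 2517 CPM in the NC libraries. The SKP2-1 libraries lay above all others, and the SKP2-2 libraries lay below all NC libraries by a small margin. That margin is narrower than the spread of LGALS3BP alone, which had 489, 617 and 646 CPM in SKP2-2 and 586, 454 and 380.5 CPM in NC. In bulk RNA, fewer cells making a transcript and less transcript per cell cannot be told apart. The range of levels was wide. In NC, 7 members averaged at least 100 CPM, 23 lay between 10 and 100, 10 between 1 and 10 and RSAD2 between 0.1 and 1. CMPK2, a mitochondrial nucleotide kinase, had 0, 1 and 2 counts in SKP2-2, 1, 2 and 0 counts in SKP2-1 and 3, 1 and 0 counts in NC, and it was the 1 member that did not pass the filter on low counts. Per kb of exon, LGALS3BP (132 CPM per kb) and IFITM3 (127) were the most abundant in NC, and MX2 (0.152) and RSAD2 (0.111) were the least abundant of the tested members. The length joins all annotated exons of a gene, 13.05 kb for MX2, and can exceed that of the transcript made. Without division by length, OAS1 (1.10 CPM) and USP18 (1.84 CPM) also lay below MX2 (1.99 CPM) in NC.

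With SKP2-1, most members were higher than in NC. Of the 41 tested members, 30 were called higher and 3 lower (OAS3, GBP1 and DTX3L), by edgeR's quasi-likelihood test at an adjusted p below 0.05. The same test called 45.5% of all 16575 genes, 25.0% of them higher and 20.5% lower. The members' median log2 fold change was 0.50, against 0.02 over all tested genes, and they ran from -0.65 to 1.77. At least 2-fold higher were 10 members, IFIT1, IFIT2, IFIT3, OAS1, OASL, MX1, MX2, RSAD2, ISG20 and IFI44L, a threshold that 2.98% of all genes passed, and none was at least 2-fold lower, as 2.93% of all genes were. Libraries of SKP2-1 and NC did not overlap for 33 of 41 members, against 54.8% of all genes.

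With SKP2-2, 4 members were called higher than in NC (IFIT2, OAS1, TRIM25 and ISG20), 16 lower and 21 were not called. Over all genes 49.4% were called, 25.2% higher and 24.1% lower, so the members called lower (39% of the tested members) exceeded the background and those called higher (9.76%) fell short of it. Leaving out 1 library at a time gave 12 to 22 members lower, with 7190 to 9152 genes called in all. Library size as the only scaling gave 13 lower, with 8491 genes called. Lower calls of HERC5, SP110, BST2 and IFI35 were lost under some alternatives, so the size of the excess depended on the fit. The median log2 fold change was -0.14, against 0.03 over all tested genes. OAS1 was at least 2-fold higher (3.31% of all genes) and TRIM22 at least 2-fold lower (3.55% of all genes). SKP2-2 and NC libraries did not overlap for 20 of 41 members, against 53.6% of all genes. Both siRNAs were compared with the same NC libraries, so these comparisons are not independent of each other.

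Set against each other, SKP2-2 was lower than SKP2-1 at 33 of 41 members and higher at 1 (GBP1), with 7 not called. All genes gave 50.5% called, 25.2% higher and 25.3% lower. The median log2 difference was -0.68, against 0.03 over all tested genes, and 14 members were at least 2-fold lower in SKP2-2, a threshold that 4.39% of all genes passed. None was at least 2-fold higher, as 2.57% of all genes were. Libraries of the siRNA groups did not overlap for 34 of 41 members, against 64.0% of all genes. SKP2 itself was 0.73 log2 units higher in SKP2-2 than in SKP2-1 (SE 0.08, adjusted p = 6.46e-06).

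**Figure D2:**
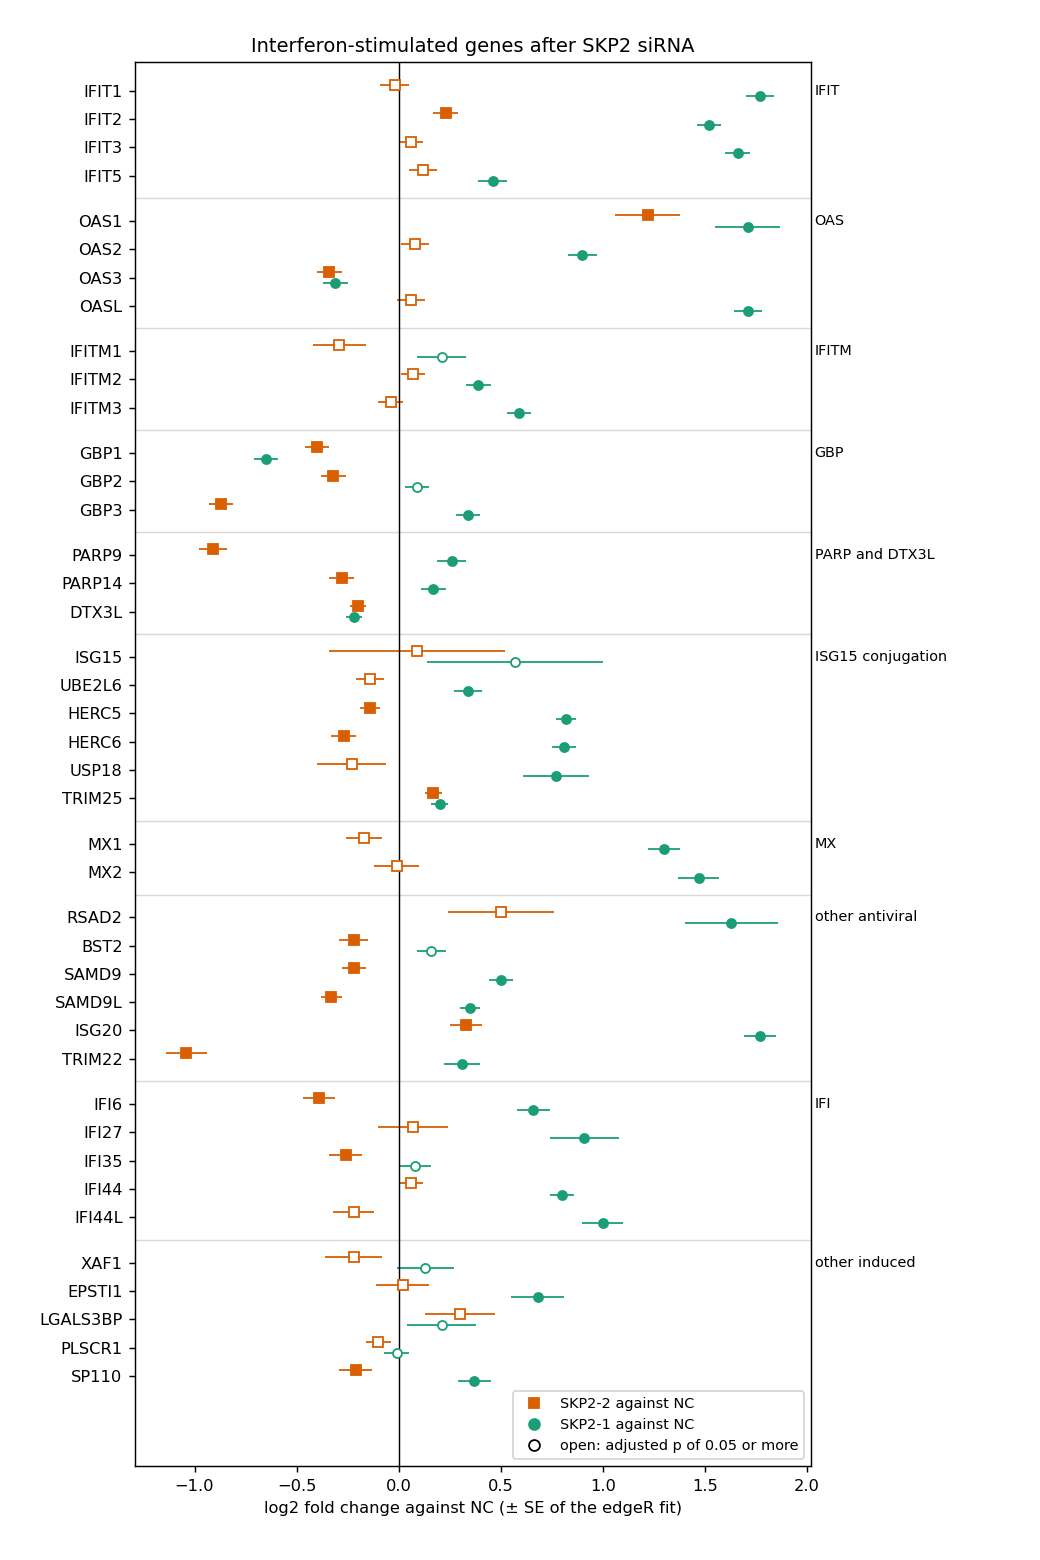
Log2 fold change against NC (x axis, ± SE of the edgeR fit over 3 libraries a group) for each of the 41 tested members, grouped by family, for SKP2-2 (squares) and SKP2-1 (circles); filled symbols passed an adjusted p of 0.05 and open ones did not. The SKP2-1 values reach 1.77 at IFIT1 and ISG20, and the SKP2-2 values run from -1.04 (TRIM22) to 1.22 (OAS1).

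The IFIT proteins bind foreign RNA and lie in a cluster on chromosome 10, in the order IFIT2, IFIT3, IFIT1 and IFIT5. All 4 rose with SKP2-1, and IFIT2 alone of them was called with SKP2-2. Summed over the family, the level was 345, 311 and 314 CPM in SKP2-2, 855, 872 and 854 CPM in SKP2-1 and 275, 305 and 324 CPM in NC. IFIT1 (ENSG00000185745, chr10:89392546-89406486), which captures RNA lacking ribose methylation at its cap, had 55.3, 50.6 and 53.0 CPM in SKP2-2, 183, 189 and 178 CPM in SKP2-1 and 48.0, 53.7 and 58.9 CPM in NC. SKP2-1 stood above every other library and SKP2-2 overlapped NC. For IFIT1 the log2 fold change against NC was -0.02 with SKP2-2 (SE 0.07, adjusted p = 0.859) and 1.77 with SKP2-1 (SE 0.07, adjusted p = 4.59e-10). IFIT3 (ENSG00000119917, chr10:89327894-89340971), the partner that stabilises IFIT1 on RNA, had 143, 126 and 123 CPM in SKP2-2, 393, 396 and 395 CPM in SKP2-1 and 115, 125 and 133 CPM in NC. It followed the same order, with overlap between SKP2-2 and NC and a gap to SKP2-1. Its log2 fold change was 0.06 with SKP2-2 (SE 0.06, adjusted p = 0.427) and 1.66 with SKP2-1 (SE 0.06, adjusted p = 4.71e-10).

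IFIT2 (ENSG00000119922, chr10:89283694-89309276), which binds AU-rich RNA, had 92.4, 84.7 and 88.6 CPM in SKP2-2, 215, 221 and 216 CPM in SKP2-1 and 69.1, 76.9 and 81.2 CPM in NC. The 3 groups did not overlap. Its log2 fold change was 0.23 with SKP2-2 (SE 0.06, adjusted p = 0.00519) and 1.52 with SKP2-1 (SE 0.06, adjusted p = 4.71e-10). IFIT5 (ENSG00000152778, chr10:89414586-89421001), which binds triphosphate RNA ends, had 55.1, 50.4 and 49.2 CPM in SKP2-2, 64.3, 66.1 and 65.7 CPM in SKP2-1 and 42.2, 48.5 and 51.5 CPM in NC. It was at 0.12 with SKP2-2 (SE 0.07, adjusted p = 0.171) and rose by 0.46 with SKP2-1 (SE 0.07, adjusted p = 0.000102), the smallest SKP2-1 change among the 4 IFIT genes. Without NC replicate 3, the SKP2-2 value of IFIT5 was called, at 0.18 (adjusted p = 0.0384). Between the siRNAs, the log2 difference of SKP2-2 against SKP2-1 ran from -1.79 for IFIT1 to -0.34 for IFIT5, and all 4 were called lower.

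**Figure D3:**
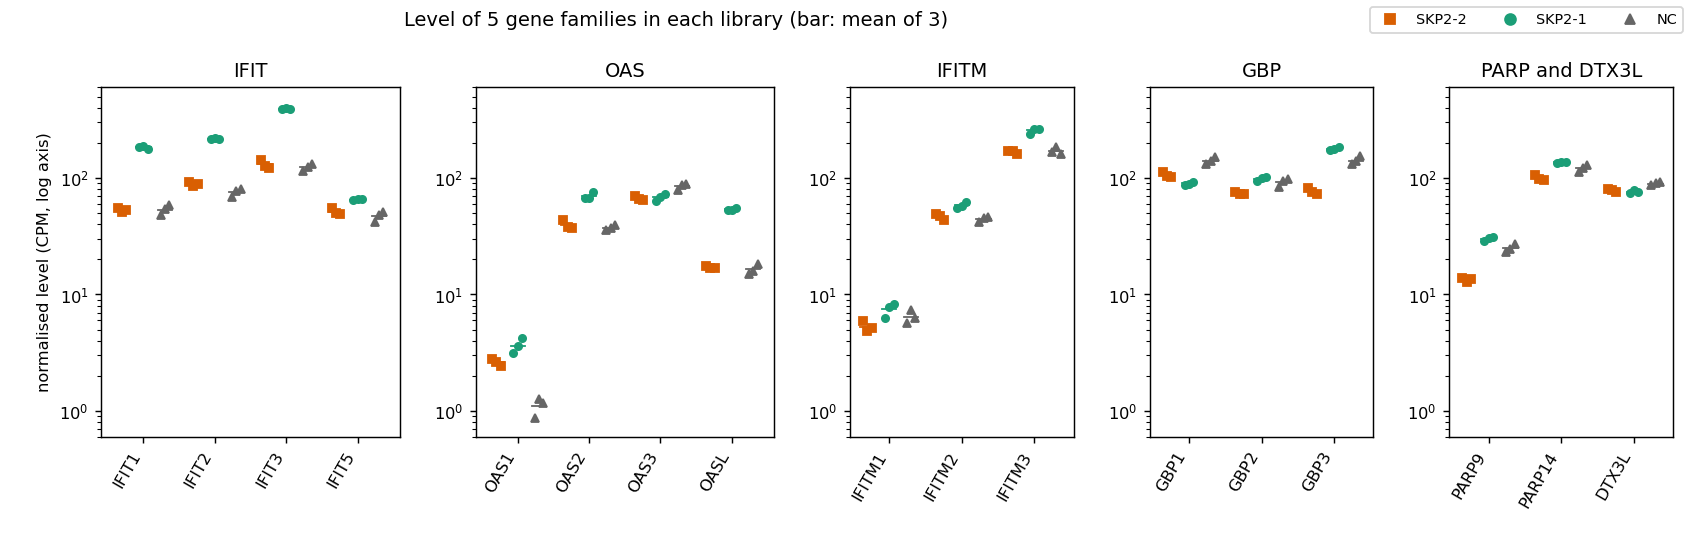
Level in every library (CPM, log axis) of the IFIT, OAS, IFITM, GBP and PARP families, with SKP2-2 (squares), SKP2-1 (circles) and NC (triangles) side by side and the mean of 3 libraries as a short bar. IFIT1, IFIT2, IFIT3, OAS2 and OASL sit higher in SKP2-1 than in both other groups, whereas OAS3, GBP1 and DTX3L sit highest in NC.

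The OAS enzymes sense double-stranded RNA and make the oligoadenylates that switch on RNase L. OAS1, OAS3 and OAS2 are neighbours on chromosome 12, with gaps of 5.1 kb, and they did not move together. OAS1 (ENSG00000089127, chr12:112906777-112933222) had 2.78, 2.61 and 2.44 CPM in SKP2-2, 3.14, 3.59 and 4.19 CPM in SKP2-1 and 0.871, 1.26 and 1.18 CPM in NC. Every siRNA library lay above every NC library. OAS1 rose by 1.22 log2 units with SKP2-2 (SE 0.16, adjusted p = 3.23e-05) and by 1.71 with SKP2-1 (SE 0.16, adjusted p = 1.38e-06). Its difference between the siRNAs, -0.48 (SE 0.14, adjusted p = 0.012), was lost without SKP2-1 replicate 3 (-0.37, adjusted p = 0.0764; 0.00177 to 0.0764 over the alternatives). OAS2 (ENSG00000111335, chr12:112978395-113011723) had 43.2, 38.1 and 37.5 CPM in SKP2-2, 66.8, 67.5 and 75.5 CPM in SKP2-1 and 35.6, 37.5 and 39.3 CPM in NC. SKP2-2 overlapped NC and SKP2-1 did not. The log2 values for OAS2 were 0.08 with SKP2-2 (SE 0.07, adjusted p = 0.37) and 0.90 with SKP2-1 (SE 0.07, adjusted p = 2.25e-07).

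OAS3 (ENSG00000111331, chr12:112938352-112973249), the main activator of RNase L in human cells, went the other way. It had 70.1, 66.3 and 64.8 CPM in SKP2-2, 63.6, 69.1 and 73.0 CPM in SKP2-1 and 79.1, 86.9 and 88.4 CPM in NC. NC lay above both siRNA groups, which overlapped. OAS3 fell by 0.34 with SKP2-2 (SE 0.06, adjusted p = 0.000412) and by 0.31 with SKP2-1 (SE 0.06, adjusted p = 0.000986). Its promoter window holds the core at -143 and -12, as printed above. The ratio of OAS1 to OAS3 counts was 0.0397, 0.0393 and 0.0377 in SKP2-2, 0.0493, 0.0519 and 0.0575 in SKP2-1 and 0.011, 0.0145 and 0.0134 in NC. This ratio is taken within a library and does not depend on the scaling.

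OASL (ENSG00000135114, chr12:121019111-121039242), which lacks the synthase activity and enhances signalling by the RNA sensor RIG-I, had 17.7, 16.8 and 16.8 CPM in SKP2-2, 53.2, 53.3 and 55 CPM in SKP2-1 and 15.1, 16.0 and 18.2 CPM in NC. It resembled IFIT1 in its order of groups, with SKP2-1 apart from overlapping SKP2-2 and NC libraries. OASL changed by 0.06 with SKP2-2 (SE 0.07, adjusted p = 0.539) and 1.71 with SKP2-1 (SE 0.07, adjusted p = 6.73e-10).

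The IFITM proteins sit in membranes and hinder the fusion of viruses with the cell. IFITM3 (ENSG00000142089, chr11:319669-327537), found mainly in endosomes, had 169.7, 171 and 161 CPM in SKP2-2, 241, 266 and 266 CPM in SKP2-1 and 166, 186 and 162 CPM in NC. The log2 fold change of IFITM3 was -0.04 with SKP2-2 (SE 0.06, adjusted p = 0.647) and 0.59 with SKP2-1 (SE 0.06, adjusted p = 2.77e-06), where the libraries did not overlap. IFITM2 (ENSG00000185201, chr11:307631-315272), also endosomal, had 48.7, 47.4 and 43.5 CPM in SKP2-2, 55.1, 57.3 and 62.3 CPM in SKP2-1 and 41.5, 45.5 and 46.3 CPM in NC. It rose by 0.39 with SKP2-1 (SE 0.06, adjusted p = 0.000244) and was at 0.07 with SKP2-2 (SE 0.06, adjusted p = 0.423). IFITM1 (ENSG00000185885, chr11:313506-315272), which lies mainly at the cell surface, had 5.89, 4.85 and 5.14 CPM in SKP2-2, 6.34, 7.74 and 8.35 CPM in SKP2-1 and 5.70, 7.36 and 6.34 CPM in NC. It overlapped NC in both comparisons, at -0.29 with SKP2-2 (SE 0.13, adjusted p = 0.0687) and 0.21 with SKP2-1 (SE 0.12, adjusted p = 0.193). The SKP2-2 value was called without NC replicate 1 (-0.38, adjusted p = 0.0246) or SKP2-2 replicate 1 (-0.42, adjusted p = 0.0304). Between the siRNAs, all 3 IFITM genes were lower in SKP2-2, with differences from -0.62 for IFITM3 to -0.32 for IFITM2. These levels are uncertain, because 34.1% of the 50-base stretches of IFITM2, 32.0% of those of IFITM1 and 17.4% of those of IFITM3 also occur in another annotated gene, and IFITM1 and IFITM2 share 351 bases of annotated exon.

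The guanylate-binding proteins are large GTPases that attack the vacuoles of intracellular pathogens, and their genes are neighbours on chromosome 1. They split with SKP2-1 and fell together with SKP2-2. GBP1 (ENSG00000117228, chr1:89052319-89065360) had 113, 105 and 102 CPM in SKP2-2, 87.6, 88.9 and 93.3 CPM in SKP2-1 and 131, 140 and 152 CPM in NC. The groups did not overlap, and GBP1 fell by 0.40 with SKP2-2 (SE 0.06, adjusted p = 7.3e-05) and by 0.65 with SKP2-1 (SE 0.06, adjusted p = 1.15e-06). It was the 1 member higher in SKP2-2 than in SKP2-1, by 0.25 (SE 0.06, adjusted p = 0.00339). GBP3 (ENSG00000117226, chr1:89006666-89022894) had 82.5, 76.3 and 73.1 CPM in SKP2-2, 173, 177 and 186 CPM in SKP2-1 and 131, 139 and 153 CPM in NC. NC lay between the siRNA groups with no overlap: GBP3 fell by 0.87 with SKP2-2 (SE 0.06, adjusted p = 1.16e-07) and rose by 0.34 with SKP2-1 (SE 0.06, adjusted p = 0.000481). GBP2 (ENSG00000162645, chr1:89106132-89150456) had 76.1, 72.7 and 73.2 CPM in SKP2-2, 93.8, 99.8 and 101 CPM in SKP2-1 and 84.4, 94.3 and 97.6 CPM in NC. It fell by 0.32 with SKP2-2 (SE 0.06, adjusted p = 0.000387), whereas SKP2-1 overlapped NC at 0.09 (SE 0.06, adjusted p = 0.207). The ratio of GBP1 to GBP3 counts showed the split within each library, at 1.37, 1.37 and 1.40 in SKP2-2, 0.507, 0.502 and 0.501 in SKP2-1 and 1.00, 1.01 and 0.993 in NC. Stretches of 50 bases shared with other genes made up 9.6% of GBP1, 10.2% of GBP2 and 4.8% of GBP3.

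PARP9 and PARP14 belong to the ADP-ribosyltransferase family, and DTX3L is the ubiquitin ligase that forms a complex with PARP9. PARP9 (ENSG00000138496, chr3:122527924-122564577) had 13.8, 12.8 and 13.6 CPM in SKP2-2, 28.8, 30.3 and 30.9 CPM in SKP2-1 and 23.3, 24.7 and 27.2 CPM in NC. It moved in opposite directions, falling by 0.91 with SKP2-2 (SE 0.07, adjusted p = 1.83e-07) and rising by 0.26 with SKP2-1 (SE 0.07, adjusted p = 0.00631). DTX3L (ENSG00000163840, chr3:122564238-122575203) had 80.5, 78.2 and 75.1 CPM in SKP2-2, 75.0, 78.2 and 76.1 CPM in SKP2-1 and 86.4, 90.2 and 91.5 CPM in NC. Both siRNA groups lay below NC, by 0.20 for SKP2-2 (SE 0.04, adjusted p = 0.00243) and by 0.22 for SKP2-1 (SE 0.04, adjusted p = 0.00105). PARP9 and DTX3L start side by side on opposite strands and share 217 bases of annotated exon, and the strand setting of the counting is not given in the sources used here. The ratio of PARP9 to DTX3L counts was 0.171, 0.164 and 0.181 in SKP2-2, 0.384, 0.387 and 0.406 in SKP2-1 and 0.270, 0.273 and 0.298 in NC. The 3 groups did not overlap in it. PARP14 (ENSG00000173193, chr3:122680618-122730840) had 106, 98.4 and 95.5 CPM in SKP2-2, 134, 137 and 137 CPM in SKP2-1 and 112, 121 and 130.2 CPM in NC. It fell by 0.28 with SKP2-2 (SE 0.06, adjusted p = 0.00131) and was called higher by 0.17 with SKP2-1 (SE 0.06, adjusted p = 0.0262), a call that 8 of 17 alternatives did not make, among them leaving out NC replicate 1 (0.10), NC replicate 2 or any SKP2-1 library (adjusted p 0.00284 to 0.109 over the alternatives).

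ISG15 is a ubiquitin-like protein that UBE2L6 and HERC5 attach to other proteins and USP18 removes. Of the 6 genes of this system, 5 rose with SKP2-1 and ISG15 itself was not called. HERC5 (ENSG00000138646, chr4:88457117-88506163) had 48.4, 46.8 and 50.1 CPM in SKP2-2, 95.7, 96.1 and 92.2 CPM in SKP2-1 and 50.3, 53.3 and 57.0 CPM in NC. It rose by 0.82 with SKP2-1 (SE 0.05, adjusted p = 4.29e-08). Its fall of 0.14 with SKP2-2 was lost under 9 of 17 alternatives, among them leaving out any SKP2-1 library, NC replicate 2 or 3, or SKP2-2 replicate 2 (SE 0.05, adjusted p = 0.0363; 0.00136 to 0.136 over the alternatives). HERC6 (ENSG00000138642, chr4:88378739-88443111), the adjacent gene and the main ISG15 ligase in the mouse, had 24.1, 22.1 and 23.2 CPM in SKP2-2, 46.8, 51.6 and 48.5 CPM in SKP2-1 and 26.9, 27.7 and 29.3 CPM in NC. The groups did not overlap, with log2 values of -0.27 for SKP2-2 (SE 0.06, adjusted p = 0.00177) and 0.81 for SKP2-1 (SE 0.06, adjusted p = 1.42e-07). USP18 (ENSG00000184979, chr22:18149899-18177397), which also restrains the interferon receptor, had 1.87, 1.54 and 1.31 CPM in SKP2-2, 2.66, 2.92 and 3.75 CPM in SKP2-1 and 1.88, 1.77 and 1.86 CPM in NC. It rose by 0.77 with SKP2-1 (SE 0.16, adjusted p = 0.00144) and was at -0.23 with SKP2-2 (SE 0.17, adjusted p = 0.295), and 23.4% of its 50-base stretches occur in another gene. UBE2L6 rose by 0.34 with SKP2-1 and was at -0.14 with SKP2-2 (adjusted p = 0.109), where it was called without NC replicate 1 (-0.20, adjusted p = 0.033) or SKP2-2 replicate 1 (-0.26, adjusted p = 0.00268). TRIM25, a ubiquitin ligase that activates RIG-I, was higher with both siRNAs, by 0.17 with SKP2-2 and 0.20 with SKP2-1.

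ISG15 and LGALS3BP are described because of their spread, chosen after their values were seen. ISG15 (ENSG00000187608, chr1:1001138-1014540) had 36.9, 44.1 and 72.7 CPM in SKP2-2, 71.9, 70.3 and 71.8 CPM in SKP2-1 and 79.7, 34.6 and 30.9 CPM in NC. The highest NC library and the highest SKP2-2 library were NC replicate 1 and SKP2-2 replicate 3. Each was the lowest of its group on the third component, at the other end from NC replicate 3 and SKP2-2 replicate 1. The SKP2-1 libraries agreed closely. The coefficient of variation was 36.9% in SKP2-2, 1.22% in SKP2-1 and 56.1% in NC, and the median over all members was 5.76% in SKP2-2, 3.58% in SKP2-1 and 7.47% in NC. ISG15 was at 0.09 with SKP2-2 (SE 0.43, adjusted p = 0.886) and 0.57 with SKP2-1 (SE 0.43, adjusted p = 0.337). Leaving out NC replicate 1 and SKP2-2 replicate 3 together was a setting chosen after seeing the data. It removes the highest ISG15 library of NC and of SKP2-2, which by itself narrows the spread. ISG15 was then called in both comparisons, at 0.31 for SKP2-2 (adjusted p = 0.00679) and 1.11 for SKP2-1 (adjusted p = 1.99e-07). Because of that choice, these calls cannot decide whether ISG15 changed. Without NC replicate 1 alone, the SKP2-1 value was 1.11 (adjusted p = 0.0276). LGALS3BP (ENSG00000108679, chr17:78971238-78980109), a secreted glycoprotein that binds galectins, had 489, 617 and 646 CPM in SKP2-2, 529.8, 557 and 555 CPM in SKP2-1 and 586, 454 and 380.5 CPM in NC. It made up 23.7% of the members' summed level in SKP2-2, 15.1% in SKP2-1 and 18.7% in NC. LGALS3BP was not called with SKP2-2 (0.30, SE 0.17, adjusted p = 0.192), and without NC replicate 1 it was (0.47, adjusted p = 0.026).

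**Figure D4:**
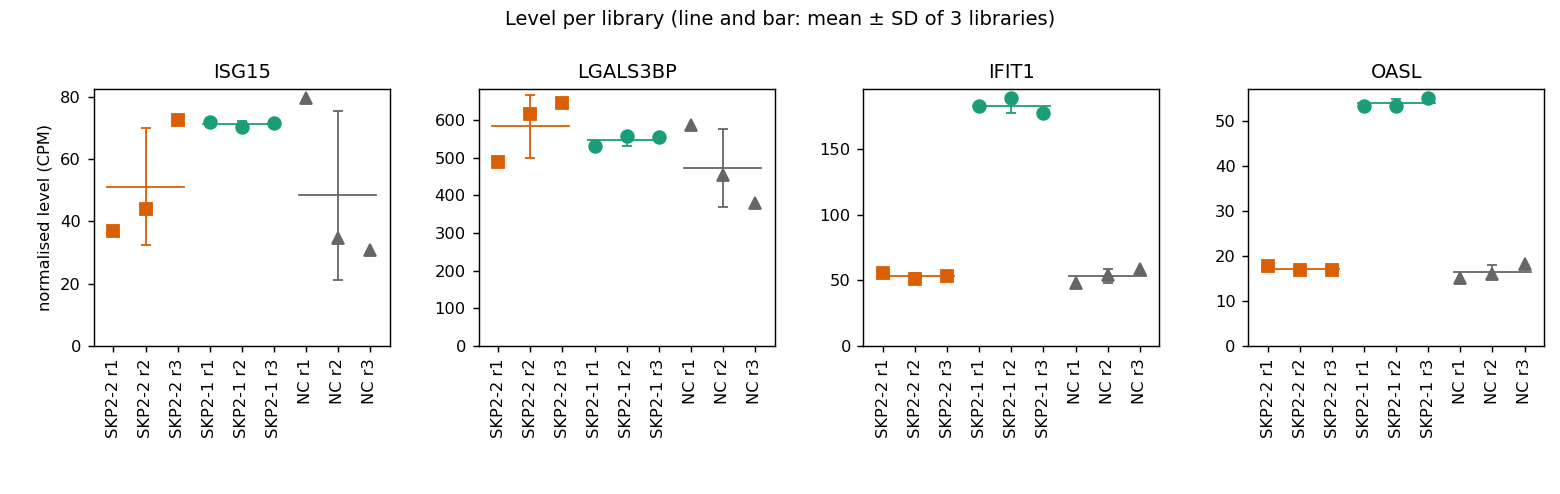
Level in each library (CPM, linear axis from 0; r1 to r3 are replicates 1 to 3) of ISG15, LGALS3BP, IFIT1 and OASL, with the mean as a line and ± SD over 3 libraries as a bar. ISG15 is at 72.7 in SKP2-2 replicate 3 and 79.7 in NC replicate 1 but at 30.9 to 44.1 in the other libraries of those groups. IFIT1 and OASL spread most in NC, where the highest library is 1.23 and 1.21 times the lowest.

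The MX proteins are dynamin-like GTPases, of which MX1 blocks influenza viruses and MX2 the nuclear entry of HIV. MX1 (ENSG00000157601, chr21:41420304-41459214) had 24.4, 20.01 and 20.2 CPM in SKP2-2, 53.6, 60.1 and 65.1 CPM in SKP2-1 and 24.2, 24.7 and 23.8 CPM in NC. SKP2-1 was higher by 1.30 against NC (SE 0.08, adjusted p = 7.25e-08), and SKP2-2 was at -0.17 (SE 0.09, adjusted p = 0.116). Without SKP2-2 replicate 1, the SKP2-2 value of MX1 was -0.31 and was called (adjusted p = 0.00882). MX2 (ENSG00000183486, chr21:41361943-41409390), its neighbour, had 2.07, 1.84 and 2.03 CPM in SKP2-2, 5.37, 5.71 and 5.49 CPM in SKP2-1 and 1.94, 1.97 and 2.05 CPM in NC. Both MX genes had SKP2-1 libraries above all others and overlapping SKP2-2 and NC libraries. MX2 was at -0.01 with SKP2-2 (SE 0.11, adjusted p = 0.971) and 1.47 with SKP2-1 (SE 0.10, adjusted p = 6.85e-08).

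Among the remaining antiviral genes, ISG20 (ENSG00000172183, chr15:88636153-88656483), an exonuclease that degrades RNA, had 11, 11 and 11.9 CPM in SKP2-2, 30.9, 31.2 and 29.9 CPM in SKP2-1 and 9.92, 9.08 and 7.97 CPM in NC. It rose with both siRNAs without overlap, by 0.33 with SKP2-2 (SE 0.08, adjusted p = 0.00379) and by 1.77 with SKP2-1 (SE 0.08, adjusted p = 1.66e-09). RSAD2 (ENSG00000134321, chr2:6865806-6898239), the radical SAM enzyme viperin, had 0.789, 0.793 and 0.728 CPM in SKP2-2, 1.63, 2.10 and 1.38 CPM in SKP2-1 and 0.478, 0.398 and 0.740 CPM in NC. At this low level it rose by 1.63 with SKP2-1 (SE 0.23, adjusted p = 7.84e-05) and was at 0.50 with SKP2-2 (SE 0.26, adjusted p = 0.136), which without NC replicate 3 became 0.82 and was called (adjusted p = 0.0278). TRIM22 (ENSG00000132274, chr11:5689689-5737089), a ubiquitin ligase that restricts HIV transcription, had 3.06, 3.81 and 3.21 CPM in SKP2-2, 8.37, 8.99 and 8.22 CPM in SKP2-1 and 6.77, 6.85 and 7.06 CPM in NC. The 3 groups were separate: TRIM22 fell by 1.04 with SKP2-2 (SE 0.10, adjusted p = 1.13e-06) and was called higher by 0.31 with SKP2-1 (SE 0.09, adjusted p = 0.0132). The SKP2-1 call was lost without SKP2-1 replicate 2 (0.27, adjusted p = 0.0626; 0.00863 to 0.0626 over the alternatives), and 12.1% of the gene's 50-base stretches occur in another gene. SAMD9 and SAMD9L, neighbouring genes that restrict poxviruses, fell with SKP2-2 by 0.22 and 0.33 and rose with SKP2-1 by 0.50 and 0.35. BST2, which tethers budding virus, fell by 0.22 with SKP2-2 (SE 0.07, adjusted p = 0.0218), a call lost under 4 of 17 alternatives, among them leaving out NC replicate 2, NC replicate 3 or SKP2-2 replicate 3 (values -0.19, -0.21 and -0.14; adjusted p 0.0011 to 0.0979 over the alternatives). With SKP2-1 BST2 was at 0.16 (adjusted p = 0.0874), called without SKP2-2 replicate 3 (adjusted p = 0.041).

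IFI genes are named for their induction by interferon and are not 1 protein family. IFI44L (ENSG00000137959, chr1:78619922-78646145) had 5.03, 4.44 and 4.11 CPM in SKP2-2, 9.66, 10.1 and 11.7 CPM in SKP2-1 and 5.06, 5.41 and 5.29 CPM in NC. It rose with SKP2-1, by 1.00 (SE 0.10, adjusted p = 2.58e-06), and was at -0.22 with SKP2-2 (SE 0.10, adjusted p = 0.0996), called without SKP2-2 replicate 1 (-0.34, adjusted p = 0.024). IFI27 (ENSG00000165949, chr14:94104836-94116698), a small mitochondrial protein, had 19.7, 15.6 and 12.4 CPM in SKP2-2, 26.5, 28 and 30.9 CPM in SKP2-1 and 13.2, 17 and 15.2 CPM in NC. SKP2-1 was above NC by 0.91 (SE 0.17, adjusted p = 0.00227), and the SKP2-2 libraries overlapped NC at 0.07 (SE 0.17, adjusted p = 0.769). IFI6 (ENSG00000126709, chr1:27666061-27672218), a membrane protein of the endoplasmic reticulum that blocks flavivirus replication, had 4.41, 4.69 and 4.39 CPM in SKP2-2, 9.43, 9.10 and 9.36 CPM in SKP2-1 and 5.73, 6.19 and 5.77 CPM in NC. With no overlap between groups, IFI6 fell by 0.39 with SKP2-2 (SE 0.08, adjusted p = 0.00103) and rose by 0.66 with SKP2-1 (SE 0.08, adjusted p = 1.09e-05). IFI44 rose by 0.80 with SKP2-1, and IFI35 fell by 0.26 with SKP2-2 (SE 0.08, adjusted p = 0.0149), a call lost without NC replicate 3 (-0.19) or SKP2-2 replicate 3 (-0.21; adjusted p 0.00171 to 0.0647 over the alternatives).

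Of the remaining interferon-induced genes, EPSTI1 (ENSG00000133106, chr13:42886388-42992271), known from epithelial and stromal co-culture, had 5.32, 5.21 and 5.48 CPM in SKP2-2, 8.09, 9.12 and 8.12 CPM in SKP2-1 and 6.69, 4.29 and 4.93 CPM in NC. It rose by 0.68 with SKP2-1 (SE 0.13, adjusted p = 0.000892) and was at 0.02 with SKP2-2 (SE 0.13, adjusted p = 0.922). SP110 (ENSG00000135899, chr2:230167293-230225729), a nuclear body protein, had 25.7, 21.7 and 21.4 CPM in SKP2-2, 33.5, 35 and 34.8 CPM in SKP2-1 and 24.8, 25.9 and 29.1 CPM in NC. SKP2-1 was higher by 0.37 (SE 0.08, adjusted p = 0.00168). The SKP2-2 libraries overlapped NC, and their call of -0.21 (SE 0.08, adjusted p = 0.0389) was lost under 10 of 17 alternatives, among them leaving out any SKP2-1 library, NC replicate 2 or 3, or SKP2-2 replicate 2 or 3 (adjusted p 0.000919 to 0.149 over the alternatives). PLSCR1, a phospholipid scramblase, and XAF1, which antagonises the apoptosis inhibitor XIAP, were not called in any comparison, with log2 values between -0.35 and 0.13. Without SKP2-2 replicate 1, both were called lower with SKP2-2 against NC, XAF1 at -0.42 (adjusted p = 0.0238) and PLSCR1 at -0.20 (adjusted p = 0.00912), and both were lower in SKP2-2 than in SKP2-1. Leaving out NC replicate 1 also gave the call of PLSCR1 against NC (-0.17, adjusted p = 0.0282), and leaving out SKP2-1 replicate 1 that of XAF1 between the siRNAs (-0.45, adjusted p = 0.0264).

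Called lower with SKP2-2 and higher with SKP2-1 against NC were 10 of the 41 tested members, against 4.39% of all genes. As the NC libraries are shared, a high or low NC value enters both calls of a gene.

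Of 9 interferon genes none was testable: IFNA1, IFNA2, IFNB1, IFNE, IFNK and IFNG had 0 counts in every library, which allows up to 3 counts, or 0.0608 to 0.0843 CPM depending on the library. IFNL1, IFNL3 and IFNL2 had 23, 11 and 3 counts in all 9 libraries together. Of 19 tested genes of receptors, kinases, STATs, IRFs and their inhibitors, 1 was called higher and 7 lower with SKP2-2 (median log2 fold change -0.11), and 5 higher and 2 lower with SKP2-1 (median -0.03). These 8 and 7 of 19 lie below the 49.4% of all genes called with SKP2-2 and the 45.5% called with SKP2-1, so the number called is no result about the list. STAT2, which serves the type I and III pathways, had 62.3, 59.8 and 60.1 CPM in SKP2-2, 102, 104 and 105 CPM in SKP2-1 and 73.1, 78.1 and 80.2 CPM in NC. It fell by 0.35 with SKP2-2 (SE 0.05, adjusted p = 3.46e-05) and rose by 0.43 with SKP2-1 (SE 0.05, adjusted p = 5.39e-06). STAT3 fell with both siRNAs, by 0.91 with SKP2-2 (SE 0.04, adjusted p = 1.85e-09) and 0.12 with SKP2-1 (SE 0.04, adjusted p = 0.0295). The alternatives were read gene by gene for members only. Signalling, sensor and marker genes, whether called or not, were not checked under them. JAK1, the kinase of all interferon receptors, had 116, 109 and 108 CPM in SKP2-2, 187, 181 and 183 CPM in SKP2-1 and 165, 178 and 191 CPM in NC. It fell by 0.68 with SKP2-2 (SE 0.06, adjusted p = 3.62e-07) and overlapped NC with SKP2-1 at 0.05 (SE 0.05, adjusted p = 0.53). IFNGR1, a chain of the type II receptor, was lower by 0.30 with SKP2-2 (SE 0.06, adjusted p = 0.00117) and higher by 0.38 with SKP2-1 (SE 0.06, adjusted p = 0.0002), a difference between the siRNAs of -0.68 (SE 0.06, adjusted p = 9.18e-07).

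Among sensors of foreign nucleic acid and their adaptors, 16 of 17 were tested. With SKP2-2, 5 were called higher and 6 lower (median -0.03), against 25.2% higher and 24.1% lower over all genes. With SKP2-1, 9 were called higher and 2 lower (median 0.29), against 25.0% higher and 20.5% lower over all genes. IFIH1, the MDA5 sensor of long double-stranded RNA, had 18.6, 15.8 and 15.9 CPM in SKP2-2, 39.7, 40.9 and 40.6 CPM in SKP2-1 and 16.2, 18.7 and 19.2 CPM in NC. SKP2-1 stood above all other libraries, by 1.16 against NC (SE 0.08, adjusted p = 6.47e-08), and SKP2-2 was at -0.11 (SE 0.08, adjusted p = 0.274). STING1, the adaptor of DNA sensing, rose with both siRNAs, by 0.28 with SKP2-2 (SE 0.06, adjusted p = 0.00182) and 0.92 with SKP2-1 (SE 0.06, adjusted p = 5.69e-08). MAVS, the adaptor of RNA sensing, was lower by 0.28 with SKP2-2 (SE 0.05, adjusted p = 0.000227) and higher by 0.27 with SKP2-1 (SE 0.05, adjusted p = 0.000286), a difference between the siRNAs of -0.55 (SE 0.05, adjusted p = 4.47e-07). TLR3, an endosomal RNA sensor, fell by 0.93 with SKP2-2 (SE 0.07, adjusted p = 2.93e-07) and was at -0.14 with SKP2-1 (SE 0.07, adjusted p = 0.128).

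**Figure D5:**
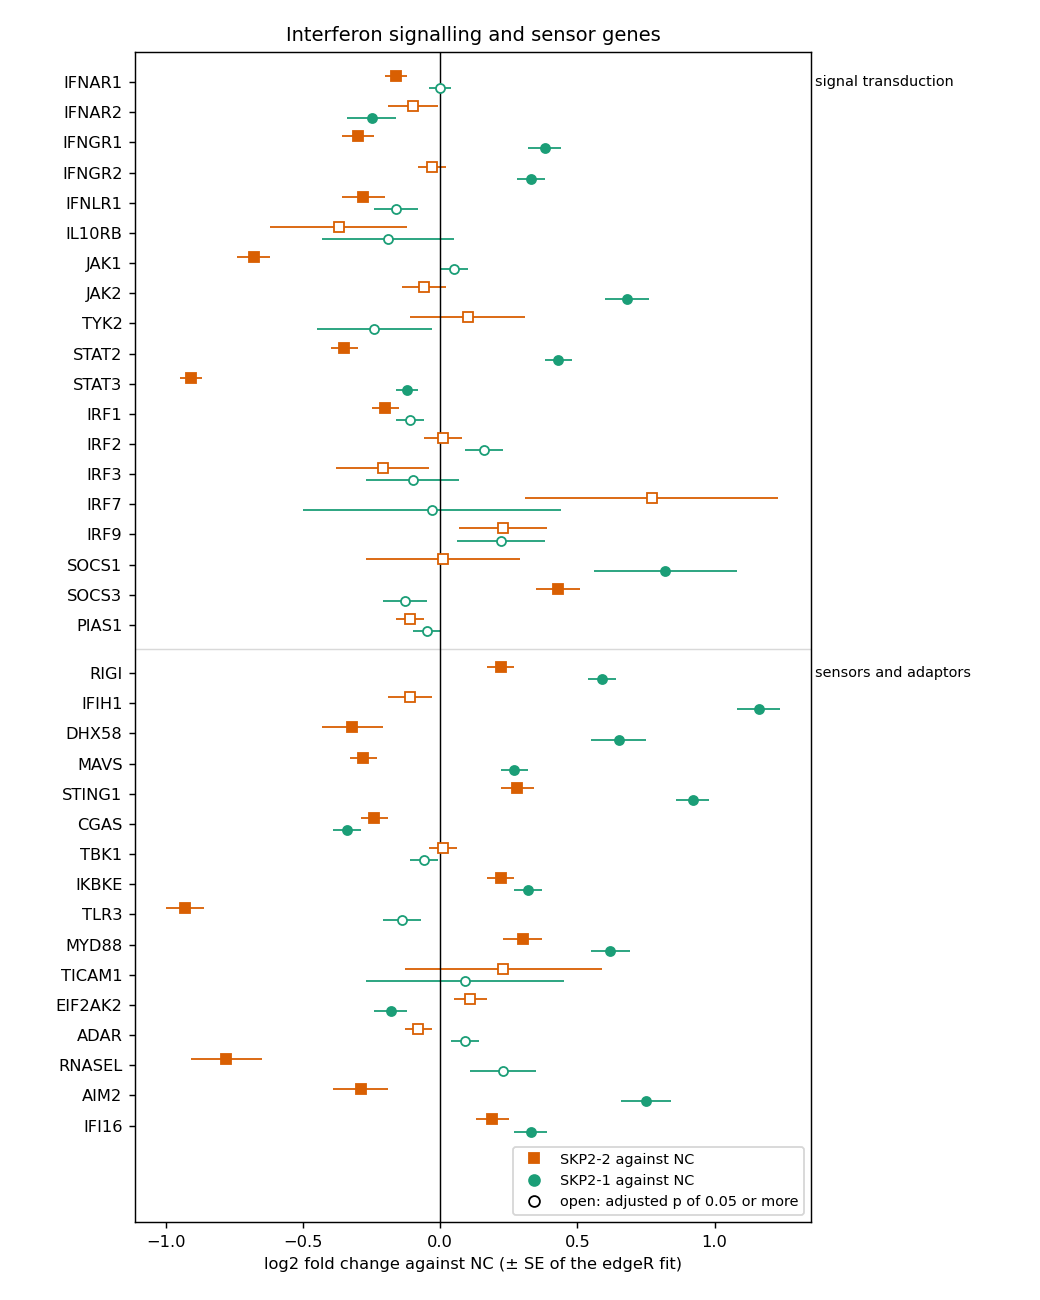
Log2 fold change against NC (x axis, ± SE of the edgeR fit over 3 libraries a group) of 19 genes of interferon signal transduction and 16 of nucleic acid sensing, for SKP2-2 (squares) and SKP2-1 (circles); filled symbols passed an adjusted p of 0.05. IFIH1 has the highest SKP2-1 value, 1.16, and TLR3 and STAT3 the lowest SKP2-2 values, -0.93 and -0.91.

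Markers of other cell types were low. The immune list summed to 9.15 to 9.99 CPM in SKP2-2, 9.12 to 10.2 CPM in SKP2-1 and 6.11 to 6.49 CPM in NC. With each siRNA, 4 of its 5 tested genes were called higher, against 25.2% of all genes with SKP2-2 and 25.0% with SKP2-1. Some were sparse: ITGAM had 130 and PTPRC 300 counts over all libraries together, and CD3E had 2. The markers CLEC4C and LILRA4 of plasmacytoid dendritic cells, the main producers of type I interferon in blood, were at 0, and IL3RA had 3 counts in all. Endothelial markers summed to 7.81 to 9.04 CPM in SKP2-2, 15.5 to 17.3 CPM in SKP2-1 and 6.88 to 7.91 CPM in NC. PECAM1 and KDR were called higher with SKP2-1, KDR also with SKP2-2, beside the same shares of all genes. CDH5 had 13 counts in all. Fibroblast markers summed to 1.97 to 2.49 CPM in SKP2-2, 1.82 to 2.11 CPM in SKP2-1 and 1.21 to 1.59 CPM in NC, and LUM was the 1 tested gene of 3. The immune sum was alike in both siRNA groups, and the endothelial sum was highest in SKP2-1, as were most effector genes. Their part in the effector results was not tested.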

How the data were processed

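RNA was extracted with a column kit and DNase I, per the labels' protocols. The authors deposited whole-number read counts for each Ensembl gene, with no normalization. The tools named are HTSeq 0.6.1, STAR, DESeq2 1.16.1, FastQC 0.11.2 and Trim Galore 0.4.1, per the submitters' processing notes. Genome build, annotation and strand setting are not given in the sources used here. Summary lines, equal to 9.3% to 9.8% of reads, were left out of library totals. Symbols came from a name table (57754 rows) and GENCODE 29 (521 rows), and gene coordinates from GENCODE 29 on GRCh38, matched by identifier.

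The software was R 4.3.3 with edgeR 4.0.16. Genes needed 10 counts in enough libraries and 15 in total (16575 genes), and were fitted after TMM scaling with a robust quasi-likelihood model of group over all 9 libraries. Tests were two-sided, with Benjamini-Hochberg adjustment over all tested genes and a threshold of 0.05. The biological coefficient of variation was 0.0891. CPM are counts relative to the scaled library size, and each SE was derived from the log2 value and its F statistic. The procedure was tested on simulated data. No library pair held identical counts. Alternatives were RLE scaling, library size only, DESeq2 1.42.0, other filters, a replicate block, fits of 2 groups, and leaving out each library.

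Values per library are given for tested IFIT, OAS, IFITM, GBP and PARP members and for up to 3 called members with the largest change in each other family. Of signalling and sensor lists, up to 4 genes with the smallest adjusted p in any of the 3 comparisons, the one between the siRNAs included, were named. Members, families, lists and tests were chosen with earlier results of these data known. Some genes of the signalling and marker lists are not reported here, and the counts and medians of those lists leave them out.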

Additional observations from a re-analysis of the deposited data

Results flagged for a closer look

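At 10 members, the siRNAs were called in opposite directions against NC, lower with SKP2-2 and higher with SKP2-1, as were 4.39% of all genes. The direct test between the siRNAs passed at each of the 10, but it also passed at all 727 genes with such calls, since choosing them by opposite calls against the same NC libraries all but fixes it. The log2 difference of SKP2-2 against SKP2-1 was -1.34 for TRIM22, -1.21 for GBP3, -1.16 for PARP9, -1.08 for HERC6, -1.05 for IFI6 and -0.97 for HERC5. It was -0.72 for SAMD9, -0.68 for SAMD9L, -0.59 for SP110 and -0.45 for PARP14. The adjusted p of that difference in edgeR's quasi-likelihood test lay between 4.85e-09 for GBP3 and 3.81e-05 for SP110. The SKP2-2 calls of HERC5 and SP110 and the SKP2-1 calls of PARP14 and TRIM22 against NC were each lost under at least 1 alternative. For GBP3, PARP9, HERC6, SAMD9, SAMD9L and IFI6 both calls against NC held under all 17 alternatives.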

How the results depend on the processing

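All counts of members called stayed within 1.5 times the reported value under the 17 alternatives, and no called value changed sign. Leaving out 1 library at a time gave 4 to 6 members higher and 12 to 22 lower with SKP2-2 against NC, 28 to 31 higher and 3 lower with SKP2-1 against NC, and 1 higher and 32 to 35 lower for SKP2-2 against SKP2-1. Over all genes, these fits called 7190 to 9152 with SKP2-2, 6429 to 8119 with SKP2-1 and 7160 to 9414 between the siRNAs. With library size as the only scaling, 13 members were lower with SKP2-2 (8491 genes called in all). The largest shift of the median over all genes under any scaling was 0.043 log2 units. Replicate numbers recur in the groups, and the labels do not say whether they pair the libraries. Deviations of same-numbered libraries from their group mean correlated between -0.498 and 0.055. NC replicate 1 correlated with SKP2-2 replicate 3 at 0.502 and NC replicate 3 with SKP2-2 replicate 1 at 0.453. With 3 libraries a group, these correlations cannot decide whether same-numbered libraries were prepared together. The replicate block gave 4 higher and 14 lower with SKP2-2 (7501 genes in all), 29 and 3 with SKP2-1 (6818 genes) and 1 and 33 between the siRNAs (7500 genes). A setting chosen after seeing the data left out NC replicate 1 and SKP2-2 replicate 3 together. It gave 5 higher and 16 lower with SKP2-2 (8928 genes in all), 31 and 3 with SKP2-1 (8755 genes) and 1 and 34 between the siRNAs (9187 genes). Of 2091 member values under alternatives, 2032 kept their side of the threshold, 35 lost the call and 24 gained one, which touched 22 of 123 results, and 31 values not called changed sign. The cause of these changes was not tested. With 3 libraries a group a SE of 0.43 log2 units for ISG15 and 0.23 to 0.26 for RSAD2 against NC limited what could be called for them.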
